A study of Mus musculus with 6 samples.

Results

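Lysyl oxidases are secreted, copper-dependent amine oxidases that cross-link collagen and elastin in the extracellular matrix. The family was taken by gene symbol as Lox, Loxl1, Loxl2, Loxl3 and Loxl4. All 5 genes were found among the 19730 rows of the expression table, with 1 row each, and all 5 passed the filter for testing, a mean of at least 1 FPKM over the 6 libraries. FPKM is the number of fragments of a transcript per kilobase of its length and per M (mega) mapped fragments. Transcripts were sequenced from primary cultures of mouse mesangial cells, which hold the capillary loops of the kidney glomerulus together and can contract. There were 3 Control libraries and 3 libraries of cells given TGF-β1 (transforming growth factor beta 1, a secreted protein known for driving scarring) at 10 ng/ml for 72 h, and the comparison asks how the treatment changed each enzyme. Cells of both groups were at passage 3 to 6, in medium with 25.5 mM glucose and 20% foetal bovine serum. The labels do not give the mouse strain or age, what the Control cells received in place of TGF-β1, or whether replicates were separate isolations, so p-values measure the spread between these libraries, which may be technical.

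Depth was 10.1 to 11.1 M fragments per library, estimated from the smallest FPKM steps with an assumed fragment length of 200 nt. With TGF-β1, 5721 of 11898 tested rows changed (limma, Benjamini-Hochberg adjusted p under 0.05), which is 48.1%, with 24.5% higher and 23.6% lower. Where libraries were scaled to the sum of their protein-coding rows, the median of all tested rows moved from -0.02 to -0.19 on the log2 scale, and the higher rows made up 33.7% of the changed rows in place of 50.9%. The mesangial markers Acta2 (912 to 1091 FPKM in Control and 3587 to 4268 with TGF-β1) and Pdgfrb (32.02 to 41.1 and 28.4 to 29.9) were present, Gata3 ranged from 0.756 to 2.42, and Itga8, Des and Thy1 stayed at or under 0.550 in every library. None of the 5 endothelial markers exceeded 0.6702 FPKM in any library. Of the podocyte markers, Synpo was at 11.6 to 12.8 FPKM in Control libraries and 7.34 to 8.47 FPKM in treated ones, Wt1 at 5.88 to 9.88 and 3.61 to 4.35, and Podxl at 2.06 to 2.48 and 0.986 to 1.52, while Nphs1 stayed at or under 0.398 in every library. The 4 macrophage markers with a row summed to 8.19 to 9.58 in Control libraries and 2.26 to 3.24 in treated ones, with Ptprc at or under 0.0448. That fall was not shared by all of them. Cd68 overlapped between the groups, at 2.02 to 3.67 FPKM in Control and 1.78 to 2.68 FPKM with TGF-β1, and Itgam stayed at or under 0.359. The 4 tubule epithelium markers with a row summed to 114 to 146 in Control libraries and 7.25 to 8.80 in treated ones, with Cdh16 at 114 to 146 and 5.75 to 6.87. Krt18, of the same list, went the other way, from 0.150 to 0.386 FPKM in Control to 1.38 to 1.81 FPKM with TGF-β1, and Cdh1 stayed at or under 0.123. Some of these marker levels moved with the treatment, and their part in the results was not tested. In a bulk sample, fewer cells of a type and less RNA per cell cannot be told apart.

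Lysyl oxidases oxidise the side chain of lysine and hydroxylysine residues to aldehydes, which then condense into covalent bonds between neighbouring collagen or elastin molecules. Lox and Loxl1 are made as proenzymes with a long propeptide that is cut off outside the cell. Loxl2, Loxl3 and Loxl4 carry scavenger receptor cysteine-rich domains in its place, and LOXL2 is known to act on collagen IV of basement membranes. In fibroblasts, TGF-β is a known inducer of lysyl oxidase. Cross-linked matrix is stiffer and harder to degrade, which is why these enzymes are studied in fibrosis.

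All 5 enzymes share a catalytic domain near the C-terminus, in which a cluster of histidines binds copper. The coding stretch of this cluster is shown because it is the part the family has in common and it shows how the members group. Each was read from the transcript with the longest coding sequence of the gene in GENCODE M1 (build mm9), 5′ to 3′ on the coding strand, with the histidine codons in capitals.
Loxl1: CATagctgtCACcaaCATtacCAC
Loxl2: CACgactgcCACaggCACtacCAC
Loxl3: CATgagtgtCATgggCATtacCAC
Loxl4: CACcagtgcCACaggCACtacCAC
The stretch lies in the coding part of exons 3 and 4 of 7 in Loxl1 (chr9:58141527-58142179, minus strand), exons 10 and 11 of 14 in Loxl2 (chr14:70082132-70088844, plus strand), exons 10 and 11 of 14 in Loxl3 (chr6:82999998-83000119, plus strand) and exons 11 and 12 of 15 in Loxl4 (chr19:42673297-42674380, minus strand). Those coordinates include 1 intron each, and in all 5 genes, Lox included, that intron falls after base 14 of the 24. Lox and Loxl1 shared 23 of the 24 bases, and Loxl2 and Loxl4 shared 22. Loxl3 shared 18 bases with each of Loxl2 and Loxl4. Between the pair of Lox and Loxl1 and the other 3 genes, 15 to 17 bases were shared. Over the whole length of the annotated coding transcripts, the longest identical run between any 2 members was 32 bases, for Lox and Loxl1.

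With TGF-β1, Lox, Loxl2 and Loxl4 were upregulated, none of the 5 was downregulated, and Loxl1 and Loxl3 did not pass the test. Set against the 24.5% of all tested rows that were called higher, 3 of 5 members were called. Loxl4 passed the filter only through its treated libraries, with a mean of 0.448 FPKM in Control and 1.79 FPKM with TGF-β1. With the filter at a mean of 3 FPKM, 2 of 4 tested members were called higher, against 2665 of 9941 rows. A call with a log2 change of at least 1 was reached by 2 of the 5, Lox and Loxl2, against 6.56% of tested rows. For Lox, Loxl2 and Loxl4 the lowest TGF-β1 library stood above the highest Control library. The same held for 29.9% of tested rows. The rank order of the changes put Loxl2 at 104 and Lox at 632 among the 11898 tested rows, counted from the largest increase. Loxl4 stood at 942.

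**Figure D1:**
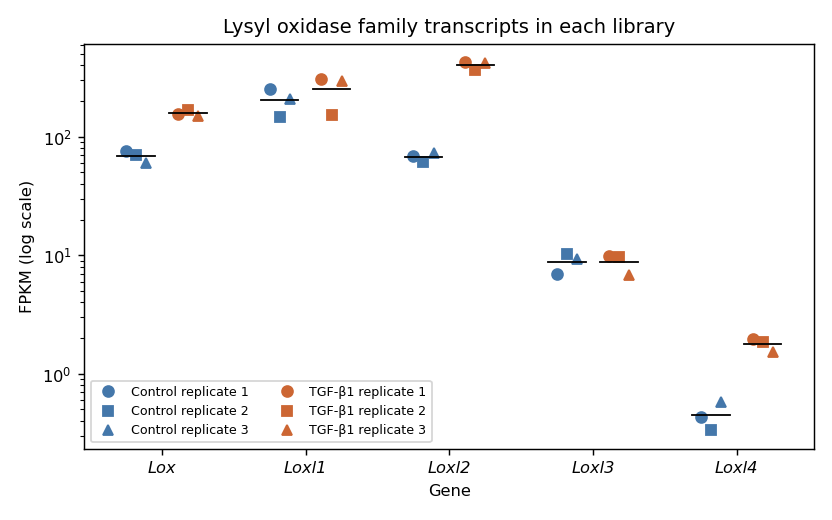
FPKM (log axis) of the 5 lysyl oxidase genes in each library, with Control in blue and TGF-β1 in orange, marker shape for the replicate number and a black line at the group mean (n = 3). Lox, Loxl2 and Loxl4 were higher in every TGF-β1 library than in any Control library. The replicate 2 libraries (squares) were the lowest in both groups for Loxl1 and Loxl2, as for 12.3% of tested rows.

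Lox is the founding member and the main cross-linking enzyme of fibrillar collagen and elastin. Its gene lies on chr18:52675723-52689521 (mm9, minus strand) and its row names a protein-coding transcript of 4468 nt. Lox was at 75.1, 70.4 and 60.3 FPKM in Control replicates 1 to 3 and at 154, 169 and 151 FPKM in TGF-β1 replicates 1 to 3. All 3 treated libraries were at least 2.005 times the highest Control library, and the values within each group lay close together. The mean rose from 68.6 ± 7.58 to 158 ± 9.60 FPKM (SD, n = 3 each), which is 2.30-fold. On the log2(FPKM + 1) scale the change was 1.19 (SE 0.11, 95% interval 0.94 to 1.45, limma adjusted p = 2.84e-04). Taken by replicate number, the difference was 1.03, 1.25 and 1.31 on the log2 scale. The row rests on an estimated 2774 to 7287 fragments per library.

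Loxl1 is the member known for elastic fibre upkeep, where it is guided to elastin by fibulin-5. The gene lies on chr9:58135530-58161019 (mm9, minus strand), and its row names a protein-coding transcript of 3338 nt. Loxl1 was at 253, 147 and 207 FPKM in Control replicates 1 to 3 and at 309, 153 and 298 FPKM in TGF-β1 replicates 1 to 3. The groups overlapped: the TGF-β1 replicate 2 value was under the Control replicate 1 and 3 values. The mean of the Control libraries was 202 ± 53.3 FPKM and that of the treated libraries 253 ± 87.3 FPKM (SD, n = 3 each), a ratio of 1.25. The change of 0.29 on the log2 scale (SE 0.33) had a 95% interval from -0.50 to 1.08 and did not pass the test (limma adjusted p = 0.499). Within each replicate number the treated value was the higher one, by 0.28, 0.05 and 0.52 on the log2 scale.

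In the TGF-β1 group the spread of Loxl1 lay in replicate 2, while in Control replicates 1 and 2 lay to either side of replicate 3. Control replicate 2 was at 0.638 times the mean of Control replicates 1 and 3, and TGF-β1 replicate 2 at 0.503 times the mean of its group's other libraries. Loxl1 was the 1 member at or under 0.7 times in both groups, as were 419 of the 11898 tested rows (3.52%). Its transcript is GC-rich, at 60.8% GC, and 96.6% of the 10116 tested rows with a GC value were lower. Across those rows, the deviation of a library from its group mean was related to GC content with a Spearman rho of -0.39 in TGF-β1 replicate 2 and 0.01 in Control replicate 2, and of 0.27 and 0.32 in TGF-β1 replicates 1 and 3. These are descriptions across genes, which are not independent, and the part of GC content in the Loxl1 values was not tested. With replicates 1 and 3 alone the log2 change of Loxl1 was 0.40 (limma adjusted p = 0.0752), and with the trend on GC content and length removed it was 0.49 (limma adjusted p = 0.0814). Without Control replicate 2 it was 0.07 (limma adjusted p = 0.879), and without TGF-β1 replicate 2 it was 0.62 (limma adjusted p = 0.0892). Lox, at 42.6% GC, was slightly higher in the replicate 2 library than in the mean of the other libraries in both groups, at 1.04 and 1.11 times. By the same measure, Control first, Loxl2 (56.8% GC) was at 0.863 and 0.872 times and Loxl4 (56.6% GC) at 0.658 and 1.05 times. Loxl3, whose row has no GC value, was at 1.25 and 1.17 times.

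Loxl2 had the largest change of the family. Its product is secreted, binds basement membrane collagen and is known as a driver of cross-linking in fibrotic tissue. The gene lies on chr14:70008978-70095640 (mm9, plus strand) and overlaps Gm16867 on the opposite strand. Its row names a protein-coding transcript of 2625 nt, while the longest transcript of the gene has 5179 nt. Loxl2 was at 69.4, 61.6 and 73.2 FPKM in Control replicates 1 to 3 and at 424, 367 and 419 FPKM in TGF-β1 replicates 1 to 3. The lowest treated library was 5.01 times the highest Control library. The mean rose from 68.1 ± 5.95 to 403 ± 31.4 FPKM (SD, n = 3 each), which is 5.92-fold. The log2 change was 2.55 (SE 0.10, 95% interval 2.30 to 2.80, limma adjusted p = 1.82e-05), and it was 2.59, 2.56 and 2.50 by replicate number. Of all tested rows, 0.866% had a larger increase.

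Loxl3 is a scavenger receptor type member known for its part in palate, spine and muscle development. The gene lies on chr6:82984167-83002556 (mm9, plus strand) and overlaps Htra2 on the opposite strand. Its row names a processed transcript of 462 nt, which has no annotated coding sequence, while the longest transcript of the gene has 4098 nt. Loxl3 was at 6.98, 10.2 and 9.36 FPKM in Control replicates 1 to 3 and at 9.79, 9.76 and 6.83 FPKM in TGF-β1 replicates 1 to 3. The groups overlapped throughout, with means of 8.85 ± 1.67 and 8.79 ± 1.70 FPKM (SD, n = 3 each). The log2 change was -0.01 (SE 0.18), with a 95% interval from -0.45 to 0.43 (limma adjusted p = 0.972). By replicate number the difference was 0.43, -0.06 and -0.40 on the log2 scale. Its depth depends on which transcript the value stands for: 19 to 30 fragments per library with the named transcript, and 288 to 440 with the longest.

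Loxl4 is the least abundant member. The gene lies on chr19:42668472-42687303 (mm9, minus strand), and its row names a protein-coding transcript of 3738 nt. Loxl4 was at 0.435, 0.333 and 0.577 FPKM in Control replicates 1 to 3 and at 1.98, 1.84 and 1.54 FPKM in TGF-β1 replicates 1 to 3. Every treated library was at least 2.67 times the highest Control library. The values rest on an estimated 13 to 22 fragments per Control library and 59 to 77 per treated library. The mean rose from 0.448 ± 0.123 to 1.79 ± 0.226 FPKM (SD, n = 3 each), which is 3.99-fold. The log2(FPKM + 1) scale understates so low a gene: the change was 0.95 with the pseudocount of 1 (SE 0.14, 95% interval 0.62 to 1.28, limma adjusted p = 0.00208) and 1.80 with a pseudocount of 0.1 (limma adjusted p = 0.00464).

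RefSeq (GRCm38.p6) gave a promoter for 1 of the 5 members, Loxl4, from 250 bases before to 50 after the gene's start (chr19:42612757-42613056, minus strand). It is shown as the only promoter available for the family. It was searched on both strands for the Smad-binding core CAGAC, the GC box GGGCGG and the AP-1 site TGANTCA. The TATA box TATAAA and ACGTG, the core shared by hypoxia and bHLH sites, were also searched for. Matches to the first 2 motifs are in capitals in the run, given 5′ to 3′ in the direction of the gene.
Loxl4 promoter: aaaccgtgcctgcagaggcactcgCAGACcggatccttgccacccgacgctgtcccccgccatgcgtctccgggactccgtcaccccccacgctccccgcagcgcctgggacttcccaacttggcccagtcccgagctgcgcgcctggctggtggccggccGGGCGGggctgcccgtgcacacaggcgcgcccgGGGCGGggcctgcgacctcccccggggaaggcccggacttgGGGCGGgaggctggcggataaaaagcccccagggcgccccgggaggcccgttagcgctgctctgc
CAGAC was found once, at -226 from the start, and 49.6% of the 32851 promoters of this length in the table hold it. GGGCGG was found at -89, -56 and -15, and 35.7% of promoters hold at least 1 copy. TGANTCA (in 7.81% of promoters), TATAAA (13.6%) and ACGTG (19.6%) had no match in this window. The matches do not overlap each other. The window has 75% GC. A match describes letters in the sequence and not a bound site.

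**Figure D2:**
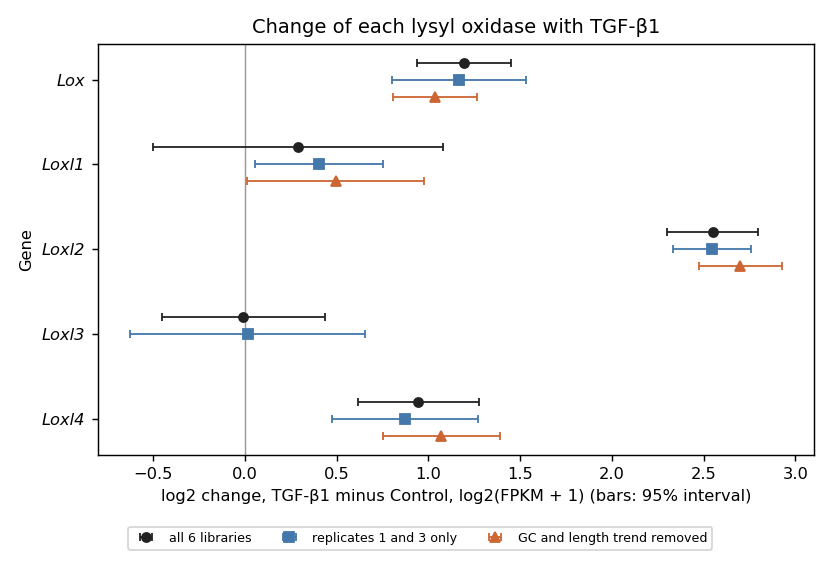
Change with TGF-β1 of each lysyl oxidase on the log2(FPKM + 1) scale, with 95% intervals from limma, in all 6 libraries (black), in replicates 1 and 3 only (blue) and after removal of the trend on GC content and length (orange). Loxl2, Lox and Loxl4 stayed above 0 in all 3, the interval of Loxl1 spanned 0 in all 6 libraries and lay above 0 in the other two fits (0.05 to 0.75 and 0.01 to 0.98, with adjusted p over 0.05 in each), and Loxl3 has no orange point because its row has no GC value.

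The order of the levels differed between the groups. FPKM is per length, so genes can be compared only where that length is right, with the limit on the Loxl3 row given above. For Loxl2 the named transcript has 2625 nt and the longest 5179 nt, and which of them the values stand for was not tested. The place of Loxl2 beside Lox and Loxl1 depends on that length. In Control, Loxl1 was the most abundant, at 97.0 to 98.2% of the way up the ranked rows of the table, and its lowest library was above every Lox and Loxl2 value. Lox and Loxl2 overlapped in Control and did not differ beyond their spread: Lox was the higher in replicates 1 and 2 and Loxl2 in replicate 3. Loxl3 followed at 60.9 to 67.2% of the rows and Loxl4 at 30.1 to 35.2%, neither overlapping its neighbour. With TGF-β1, Loxl2 was first in every library, at 98.5 to 98.6% of the rows. Loxl1 and Lox then overlapped, because Loxl1 was above Lox in replicates 1 and 3 and under it in replicate 2. Loxl3 and Loxl4 kept the last places, with Loxl4 at 45.2 to 47.7% of the rows.

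Summed over the family, FPKM was 405, 290 and 351 in Control replicates 1 to 3 and 899, 700 and 876 in TGF-β1 replicates 1 to 3. The mean sum was 348 ± 57.9 and 825 ± 109 (SD, n = 3 each), a ratio of 2.37. Loxl1 was the largest part of the sum in every Control library and Loxl2 in every treated library. Loxl2 made up 17.1, 21.3 and 20.9% of the sum in the Control libraries and 47.2, 52.5 and 47.8% in the TGF-β1 libraries. For Loxl1 the Control shares were 62.5, 50.8 and 59.1% and the treated shares 34.3, 21.8 and 34.1%. Neither pair of groups overlapped. The mean share of Loxl2 differed by 29.4 percentage points and that of Loxl1 by -27.4. For both, the two-sided exact permutation p was 0.1, the smallest that 3 libraries against 3 can give, and 0.125 after adjustment over the 5 members, so this design could not reach 0.05. A share within a library does not depend on how libraries were scaled. It does depend on the transcript length behind each row, which is uncertain for Loxl2 and Loxl3.

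Lox rose about as much as the sum did. It made up 18.5, 24.3 and 17.2% of the sum in Control replicates 1 to 3 and 17.1, 24.1 and 17.2% in the treated libraries, with means of 20.0 ± 3.79% and 19.5 ± 3.998% (SD, n = 3 each, two-sided exact permutation p = 0.5). The replicate 2 library had the highest Lox share in both groups, where Loxl1 was lowest. Loxl3 was at 1.72 to 3.52% of the sum in Control and at 0.780 to 1.39% with TGF-β1, without overlap (exact permutation p = 0.1, adjusted 0.125), although its own FPKM overlapped between the groups. As a share of fragments (FPKM times the length of the named transcript, 462 nt for Loxl3), the difference was -0.206 percentage points in place of -1.55. Loxl4 stayed under 0.263% of the sum in each library. The ratio of Loxl2 to Lox was 0.924, 0.874 and 1.21 in Control replicates 1 to 3 and 2.75, 2.18 and 2.78 in the treated libraries.

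**Figure D3:**
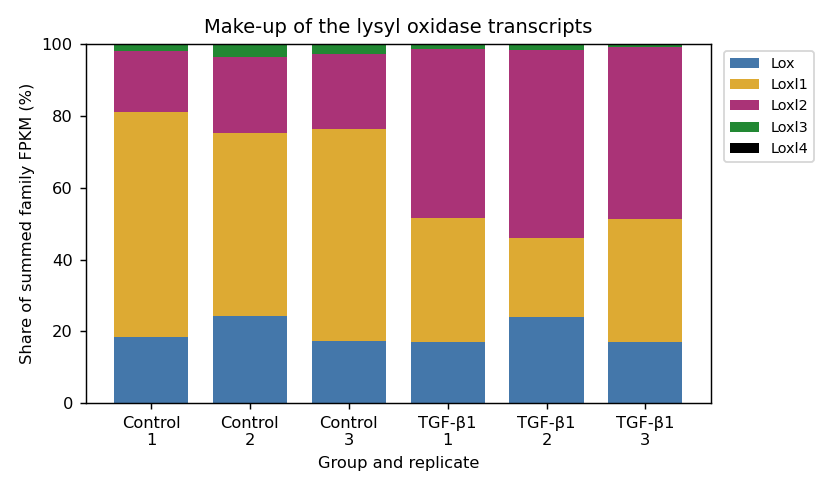
Share of each member in the summed FPKM of the lysyl oxidase family (stacked bars, %), for each library. Loxl1 (yellow) was the largest part in the 3 Control libraries and Loxl2 (purple) in the 3 TGF-β1 libraries, while Lox (blue) lay between 17.1 and 24.3% in all 6.

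The rows whose pattern over the 6 libraries was most like each member were found by the Euclidean distance between centred log2(FPKM + 1) profiles. Nearest to Lox were Timm17a, an inner mitochondrial membrane import subunit (distance 0.0727), Cfl2, a muscle cofilin (0.0780), and Mob3a (0.103). Cfl2 was at 54.5, 49.8 and 41.3 FPKM in Control and at 108, 124 and 106 FPKM with TGF-β1. Nearest to Loxl2 were Tnfaip3, an inhibitor of NF-κB signalling (0.193), Slamf9 (0.197) and the kinesin Kif26b (0.225). Tnfaip3 went from 1.59 to 2.45 FPKM in Control to 15.4 to 18.5 FPKM with TGF-β1. Nearest to Loxl4 were Slc18a2, a vesicular monoamine transporter (0.132), 4632434I11Rik (0.134) and Nudcd2 (0.137).

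The rows nearest to Loxl1 were Mex3d, an RNA-binding protein (0.183), Cox6a1, a cytochrome oxidase subunit (0.194), and Rps10, a ribosomal protein (0.199). They were picked by their pattern, so their low replicate 2 values follow from that choice. Cox6a1 was at 873, 521 and 708 FPKM in Control replicates 1 to 3 and at 1196, 539 and 1170 FPKM in TGF-β1 replicates 1 to 3, the same low libraries as Loxl1. Nearest to Loxl3 were Fchsd2 (0.158), Atpaf2 (0.183) and Gmeb1 (0.184), whose overlap between the groups likewise follows from the choice by pattern.

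The genes that lysyl oxidases work with were taken as 6 lists of 57 genes, and each list is given by its counts beside the 24.5% higher and 23.6% lower of all tested rows, whose median log2 change was -0.02. The first list holds the proteases that free lysyl oxidases and procollagens from their propeptides and the matrix proteins that dock the enzymes. Of 10 genes 7 were tested, 5 were higher, 1 was lower and the median log2 change was 1.52. Bmp1, the protease that releases the Lox propeptide, was at 156, 165 and 164 FPKM in Control and at 522, 376 and 515 FPKM with TGF-β1 (log2 change 1.52, SE 0.14, limma adjusted p = 3.46e-04). Tll1, a protease of the same family, went from 0.230 to 0.353 FPKM to 3.41 to 4.30 FPKM (log2 change 1.85, limma adjusted p = 1.25e-04). Tll1 passed the filter only through its treated libraries, with a mean of 3.72 FPKM against 0.309 in Control. Postn (periostin), which supports docking of Bmp1 on fibronectin, rose from 7.30 to 10.8 FPKM to 229 to 258 FPKM, and Fn1 (fibronectin) from 343 to 459 FPKM to 3021 to 3222 FPKM (log2 changes 4.58 and 3.03). Pcolce, the enhancer of procollagen C-proteinase, fell against the rest of its list: it was at 1015, 1156 and 1189 FPKM in Control and at 274, 315 and 261 FPKM with TGF-β1 (log2 change -1.98, limma adjusted p = 6.06e-05). The Pcolce gene overlaps Fbxo24 on the same strand.

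Genes of the elastic fibre were called in both directions. Of 10 genes 6 were tested, 1 was higher, 3 were lower and the median log2 change was -0.67. Eln (elastin), the classic elastic substrate, was at or under 0.0778 FPKM in every library and was listed at 0 in 3 of the 6, under the filter for testing. Fbn1 (fibrillin 1, the microfibril backbone) rose from 2.75 to 2.93 FPKM to 9.51 to 11.1 FPKM (log2 change 1.53, limma adjusted p = 7.66e-05). Fbln5 (fibulin 5, which tethers Loxl1 to elastin) was at 9.13, 7.86 and 6.30 FPKM in Control and at 2.02, 1.86 and 1.63 FPKM with TGF-β1 (log2 change -1.62, limma adjusted p = 2.96e-04). Mfap2, a microfibril glycoprotein, fell by 2.14 on the log2 scale and Ltbp4, which guides fibulin 5, fell by 1.24. Ltbp4 was at 7.06, 11.3 and 17.7 FPKM in Control, and its call was lost without any of Control replicate 2, TGF-β1 replicate 2 or TGF-β1 replicate 3 (log2 changes -1.24, -1.17 and -1.21, limma adjusted p = 0.0502, 0.0509 and 0.0518).

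Fibrillar collagens, the main substrate of Lox, were largely higher. Of 11 genes 9 were tested, 7 were higher, none was lower and the median log2 change was 1.56. Col1a1 was at 224, 234 and 236 FPKM in Control and at 932, 996 and 931 FPKM with TGF-β1, which is 4.12-fold (log2 change 2.04, SE 0.08, limma adjusted p = 1.72e-05). Col5a3 rose from 0.582 to 0.918 FPKM to 15.2 to 17.9 FPKM, Col5a2 from 176 to 226 FPKM to 714 to 888 FPKM, and Col27a1 from 0.812 to 1.53 FPKM to 6.46 to 7.12 FPKM (log2 changes 3.32, 1.99 and 1.77). Col3a1 was at 29.0, 22.3 and 26.5 FPKM in Control and at 28.4, 30.0 and 25.3 FPKM with TGF-β1, with overlap between the groups (log2 change 0.10, 95% interval -0.19 to 0.39, limma adjusted p = 0.504). The row of Col1a2, named here after its values were seen, stands for a transcript of 850 nt and was at 0.546 to 1.69 FPKM, so it does not show the level of the full-length mRNA. Col1a2 and Col5a3, both among the 7 called higher, passed the filter only through their treated libraries, with Control means of 0.726 and 0.761 FPKM. The Col27a1 row names a retained-intron transcript.

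The collagen IV chains, the basement membrane substrate of Loxl2, divided by chain. All 6 were tested, 2 were higher and 4 were lower. Col4a1 was at 381, 429 and 423 FPKM in Control and at 191, 203 and 190 FPKM with TGF-β1, and Col4a2 went from 294 to 329 FPKM to 105 to 112 FPKM (log2 changes -1.07 and -1.53, limma adjusted p = 1.93e-04 and 4.54e-05). Col4a6 fell by 2.21 on the log2 scale. Col4a3 rose from 1.88 to 2.75 FPKM to 35.7 to 41.7 FPKM, and Col4a4 from 1.37 to 1.49 FPKM to 11.8 to 12.6 FPKM (log2 changes 3.51 and 2.44). The Col4a3 row names a retained-intron transcript of 1926 nt and overlaps C430014B12Rik on the opposite strand, and Col4a1 and Col4a2 are annotated as overlapping each other. Col4a1 and Col4a2 remained the most abundant chains in both groups.

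Enzymes that prepare collagen lysines, with other cross-linkers, were largely higher. Of 10 genes 8 were tested, 7 were higher, none was lower and the median log2 change was 0.74. The call of Tgm2, named here after its values were seen, lay at the threshold (log2 change 0.35, limma adjusted p = 0.0499). Under the 17 alternatives 6 to 8 genes of this list were called. Plod2, the lysyl hydroxylase of the collagen telopeptides, was at 48.8, 43.3 and 49.3 FPKM in Control and at 113, 121 and 108 FPKM with TGF-β1 (log2 change 1.25, SE 0.09, limma adjusted p = 1.25e-04). Pxdn (peroxidasin), which makes sulfilimine cross-links in collagen IV, rose from 17.9 to 19.4 FPKM to 55.8 to 62.7 FPKM (log2 change 1.66, limma adjusted p = 3.67e-05). Fkbp10, a chaperone that Plod2 activity depends on, and the collagen chaperone Serpinh1 rose by 0.94 and 0.88 on the log2 scale.

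Genes of copper handling were called about as often as all tested rows, at 3 of 7 against 48.1%. Of 10 genes 7 were tested, 1 was higher, 2 were lower and the median log2 change was -0.10. The balance turned to 2 higher and 1 lower with replicates 1 and 3 only or with the trend on GC content and length removed. Atp7a, the pump that loads copper onto lysyl oxidases in the secretory pathway, was at 1.86, 2.04 and 2.33 FPKM in Control and at 1.99, 2.07 and 1.55 FPKM with TGF-β1 (log2 change -0.10, 95% interval -0.41 to 0.21, limma adjusted p = 0.549). Slc31a1, the copper importer of the plasma membrane, rose from 18.2 to 24.4 FPKM to 33.5 to 39.0 FPKM (log2 change 0.70, limma adjusted p = 0.00552). Slc31a2, its relative, fell by 0.84 on the log2 scale. Aoc2, a copper amine oxidase of another family, was lower by a log2 change of -0.43 (limma adjusted p = 0.0407), a call that was lost when any library other than TGF-β1 replicate 2 was left out, with adjusted p between 0.0504 and 0.107 by limma.

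**Figure D4:**
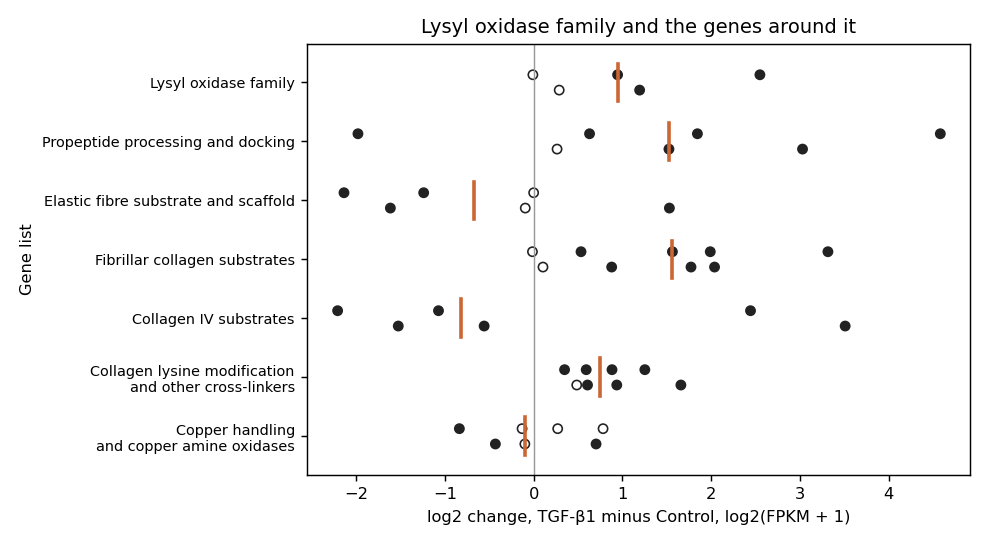
log2 change with TGF-β1 of each tested gene in the lysyl oxidase family and the 6 lists (points: filled where the limma adjusted p was under 0.05, open where not; orange line: list median; rows are staggered for legibility). Fibrillar collagens and lysine-modifying enzymes lay almost wholly at or above 0, collagen IV chains on both sides, and 3 of the 6 tested elastic fibre genes were called lower.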

How the data were processed

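RNA-Seq was performed on 3 Control and 3 TGF-β1 samples, grouped and numbered from the sample labels. Reads of low quality were discarded by the authors, mapping to mm9 used TopHat (the submitters' processing notes name TopHat2 2.0.11), and FPKM were estimated with Cufflinks. The deposited values are FPKM in a column for each library; further scaling is not given in the sources used here. Each row names a transcript, but of 7829 low values in genes with several transcripts, 620 matched 1 fragment of the named transcript and 1127 matched 1 fragment of another transcript only (length tolerance 0.3%), so a row need not hold only the named transcript. Use of read strand is not given in the sources used here, and overlapping genes are uncertain. Depth was recovered from low values of single-transcript genes, of which 99.4 to 99.9% were whole fragments within 0.1 fragment.

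The 11898 rows averaging 1 FPKM or more were fitted in R 4.3.3 using limma 3.58.1 on log2(FPKM + 1), by lmFit and then eBayes allowing a mean-variance trend. Tests were two-sided, without a block, and p-values were adjusted over all of these rows by the Benjamini-Hochberg method. The authors used a count model (DESeq), for which FPKM are not suited. The procedure was run on simulated data with few changed rows, drawn independently of each other. Such data lack the GC and replicate 2 patterns of these libraries. Shares were compared with exact permutation tests over the 6 libraries. Coordinates are mm9 from GENCODE M1, in which 19699 rows were found by transcript identifier; 3 list genes were matched through RefSeq synonyms. The members and gene lists were chosen with earlier results of these data known. Genes named were the 5 members, 8 preset list genes, the 4 largest changes among the called genes of each list, and the 3 rows nearest in pattern to each member. Alternatives covered the pseudocount, filters, variance trend, scaling, GC and length, the replicate number, replicate 2, and each library left out. Other steps used Python 3.11.15 (scipy 1.17.1, pandas 2.3.3, numpy 2.4.6, and for plots matplotlib 3.10.9). The values of 1 gene of the marker lists are not reported here.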

Additional observations from a re-analysis of the deposited data

How the results depend on the processing

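The upward calls of Lox, Loxl2 and Loxl4 held under every alternative in which they were tested: log2 changes were 1.001 to 1.26 for Lox, 2.36 to 2.70 for Loxl2 (17 alternatives each) and 0.85 to 1.80 for Loxl4 (16, since the stricter filter of a mean of 3 FPKM leaves it untested). Loxl1 was called in 1 of 17: with the GC and length trend removed and the replicate number as a block its log2 change was 0.49 (limma adjusted p = 0.00692). With the block alone the log2 change of Loxl1 was 0.29 (limma adjusted p = 0.117). The block alone gave 5391 changed rows in place of 5721 and changed no call among the members. In the copper list 2 genes were then higher and 1 lower, and with the GC and length trend also removed 3 and 1. The replicate numbers were not taken to pair the libraries, as the labels do not state a pairing. Across rows, the deviations of same-numbered libraries from their group means correlated at 0.0921, 0.232 and 0.0853. Among differently numbered libraries, Control replicate 1 and TGF-β1 replicate 3 correlated at 0.117, and the rest at -0.194 to -0.0160. Whether same-numbered libraries share an effect was not tested. Loxl3, uncalled throughout and without a value in the GC alternatives, changed sign with replicates 1 and 3 only (0.015) and ranged from -0.15 to 0.14 with each library left out in turn. Col3a1, also uncalled, was at -0.084 with scaling to the sum of protein-coding rows and at -0.048 with replicates 1 and 3 only. Ltbp4 lost its call with replicates 1 and 3 only, and Aoc2 in 11 of the 16 alternatives that tested it. The share of Lox, which did not differ, was 0.67 points higher with TGF-β1 as a share of fragments (FPKM times length) and ranged from -2.85 to 1.61 points with each library left out. By fragments, with the lengths of the named transcripts, the shares of Loxl2 and Loxl3 differed by 25.1 and -0.206 points. Counts of changed genes stayed within 1.5 times under all 17 alternatives, at 4195 to 6026 rows in the whole table and 2 to 4 family members. Depth limits Loxl4 and, depending on its transcript, Loxl3. The causes of these shifts were not tested.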
